A study of Sus scrofa with 6 samples.

Results

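Lysosomal hydrolases and lysosomal membrane proteins were examined in the myocardium of Tibetan minipigs with chronic pressure overload. A set of 37 genes was listed by name, and 33 of them had a row of their own symbol among the 13288 genes of the expression table. Another 3 (HEXA, IDS and MAN2B1) were found by their Ensembl identifier alone, because their rows carry no symbol, and CTSK had no row of its own. The expression data came from ventricular tissue of 3 sham minipigs and 3 minipigs with descending aortic constriction (DAC), collected 12 weeks after surgery. All animals were male Tibetan minipigs, and the sham group had surgery without the constriction. The labels call the 3 samples of each group independent. The animals' age is not given in the sources used here, and bulk ventricular tissue mixes the cell types it holds. Values are FPKM, which are fragment counts scaled by transcript length and by sequencing depth, so levels can be set side by side between genes.

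The lysosome is an acidic organelle in which proteins, glycogen, sphingolipids and cholesterol esters are broken down. Its soluble hydrolases are made in the endoplasmic reticulum, tagged with mannose 6-phosphate in the Golgi and carried onward by receptors, while the proton pump (V-ATPase) keeps its lumen acidic and heavily glycosylated membrane proteins line it. In cardiac muscle, the organelle clears autophagosomes with worn organelles and glycogen, and inherited loss of GAA or LAMP2 causes storage disease with cardiomyopathy.

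In DAC myocardium, transcripts of 6 lysosomal genes were downregulated, led by the aspartic protease cathepsin D. Of the 32 listed genes that reached 1 FPKM in 3 or more minipigs and so were tested, 6 were downregulated (CTSD, PSAP, ATP6AP1, LAMP1, TPP1 and SMPD1) and 0 were upregulated at an unadjusted P under 0.05 in limma's test, the threshold the study used for DEGs. Among all 11029 genes tested, 5.27% were downregulated and 3.25% upregulated. The adjusted P was under 0.05 for 0 of the 32 and for 0% of all genes, and the smallest adjusted P of any gene was 0.106. The mean was lower in the DAC group for 21 of the 32, beside 53.4% of all genes. The median log2 fold change of the 32 was -0.08 (range -0.58 to 0.27), beside -0.02 for all genes. With the 3 genes found by identifier the median stayed at -0.08, and 6 of 35 were downregulated. In each minipig, the median log2 deviation of the 32 from the sham mean was 0.03, -0.10 and 0.04 in sham samples. It was -0.13, -0.01 and -0.10 in DAC samples, so the groups overlapped through sham replicate 2. In bulk tissue, fewer cells of a type and less RNA per cell cannot be told apart.

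Levels differed widely between the members. The plot of all members by function shows CTSD at the top and CTSL at the bottom of the range. CTSL, a cysteine cathepsin, held 0.490, 0.315 and 0.386 FPKM in the sham group and 0.551, 0.548 and 1.10 FPKM in the DAC group. All 3 DAC values were above the sham values, but at so low a level that CTSL did not pass the filter and was not tested. The next lowest member was CLN3, a lysosomal membrane protein lost in juvenile neuronal ceroid lipofuscinosis. Its FPKM was 1.83, 1.51 and 1.94 in sham and 1.64, 1.75 and 1.58 in DAC samples. The CLN3 values of the groups overlapped, and the log2 fold change was -0.05 (95% interval -0.32 to 0.21).

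**Figure D1:**
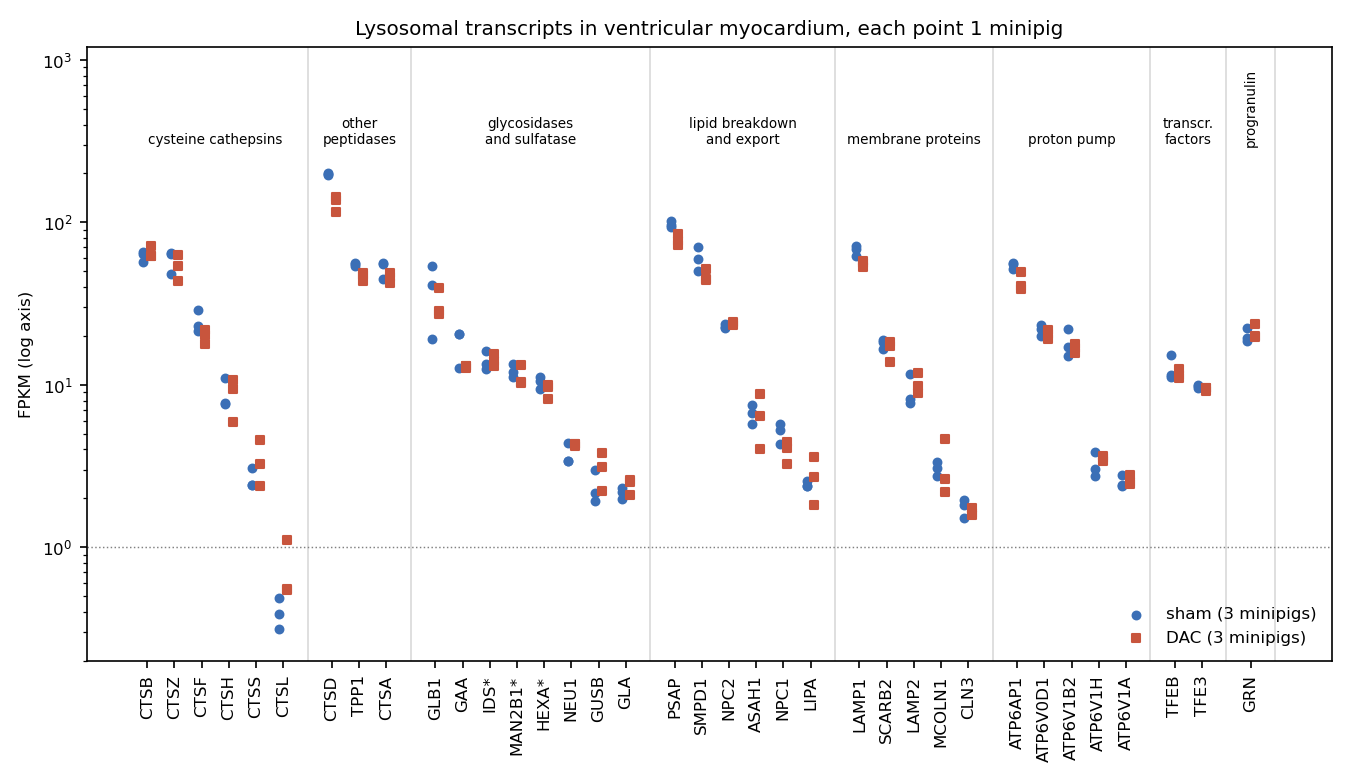
FPKM on a log axis of the 36 listed genes with a row, grouped by function, with 1 point for each minipig (circles sham, squares DAC), and an asterisk for the 3 genes matched by identifier alone. CTSD lies highest, at 116 to 200.3 FPKM, and CTSL lies lowest, at 0.315 to 1.10 FPKM around the dotted line at 1 FPKM.

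Among the peptidases other than cysteine cathepsins, both CTSD and TPP1 were downregulated. CTSD encodes cathepsin D, the main aspartic protease of the lysosome (chr2:1188549-1197635, minus strand, build susScr11). CTSD was measured at 195, 197 and 200.3 FPKM in the sham group and at 143, 116 and 138 FPKM in the DAC group. The sham minipigs were nearly equal, and each DAC minipig lay well below all of them. The CTSD means were 197.6 ± 2.504 and 132.5 ± 14.3 FPKM (SD, n = 3 each), so the level fell by 32.97%, with a log2 fold change of -0.58 ± 0.11 (SE) and an adjusted P of 0.379 in limma. CTSD was the one member called in each of the 14 fits, the main one and 13 alternatives, with log2 fold changes from -0.64 to -0.49.

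TPP1, the tripeptidyl peptidase lost in late infantile neuronal ceroid lipofuscinosis (chr9:3135642-3143408, plus strand), held 55.2, 53.9 and 55.8 FPKM in sham and 43.6, 49.0 and 47.6 FPKM in DAC samples. The TPP1 groups did not overlap, and the sham values were again close together. Its log2 fold change was -0.23 ± 0.10 (SE, adjusted P = 0.585 in limma), a value near the threshold that was called in 6 of 14 fits. Of the fits with 1 minipig left out, TPP1 was called in that without DAC replicate 5 alone (-0.27), and its values in the others were -0.25 to -0.18. CTSA, the protective protein that stabilizes beta-galactosidase and neuraminidase in a complex, had a log2 fold change of -0.18 (95% interval -0.47 to 0.11) and was not called.

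In lipid breakdown and export, PSAP and SMPD1 were downregulated. PSAP encodes prosaposin, the precursor of the saposins that present sphingolipids to their hydrolases (chr14:74734189-74887763, minus strand). PSAP was measured at 95.7, 93.4 and 102 FPKM in the sham group and at 72.8, 76.4 and 84.2 FPKM in the DAC group. All DAC values of PSAP were below all sham values. Its log2 fold change was -0.32 ± 0.10 (SE, adjusted P = 0.522 in limma). The PSAP call was kept in 13 of 14 fits, and was lost without sham replicate 3 (-0.28). The interval of the PSAP row overlaps that of CHST3, and how shared reads were counted is not given in the sources used here.

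SMPD1, the acid sphingomyelinase (chr9:3324091-3328373, minus strand), held 59.3, 50.4 and 70.6 FPKM in sham and 44.8, 44.1 and 51.5 FPKM in DAC samples. The SMPD1 groups overlapped, since sham replicate 2 lay below DAC replicate 6. With a log2 fold change of -0.34 ± 0.15 (SE, adjusted P = 0.586 in limma) it had the highest adjusted P of the 6 calls and was called in 5 of 14 fits. Its log2 fold change ranged from -0.46 without sham replicate 2 to -0.22 without sham replicate 3. The SMPD1 call was lost without sham replicate 1 (-0.35), sham replicate 3, DAC replicate 4 (-0.32) or DAC replicate 5 (-0.30). The paired cholesterol exporters gave unlike values. NPC1, the transporter in the membrane, had a log2 fold change of -0.31 (95% interval -0.65 to 0.02), and NPC2, its soluble partner in the lumen, had one of 0.06 (-0.15 to 0.28). Neither NPC1 nor NPC2 was called, and their difference was not tested. ASAH1, the acid ceramidase, and LIPA, the acid lipase, had log2 fold changes of -0.10 and 0.08 with wide intervals, -0.66 to 0.47 and -0.34 to 0.51.

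**Figure D2:**
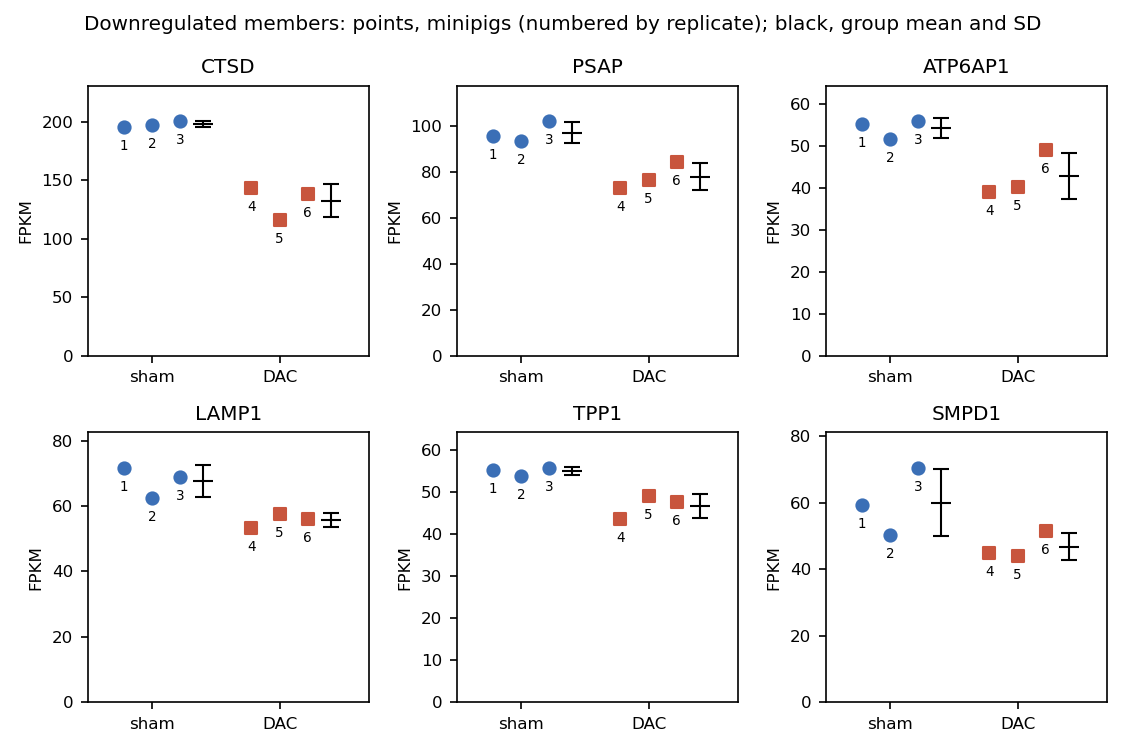
FPKM of the 6 downregulated members in each minipig (circles sham, squares DAC, numbered by replicate), on axes that start at 0, with the group mean and SD (n = 3) in black. For CTSD, PSAP, ATP6AP1, LAMP1 and TPP1 the DAC points lie below all sham points, while for SMPD1 sham replicate 2 (50.4 FPKM) lies below DAC replicate 6 (51.5 FPKM).

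Of the membrane proteins, LAMP1 was downregulated and LAMP2 was not called, and their difference was not tested. LAMP1 is a main glycoprotein of the lysosomal membrane (chr11:78600713-78617615, plus strand). LAMP1 was measured at 71.7, 62.4 and 69.0 FPKM in the sham group and at 53.3, 57.7 and 56.0 FPKM in the DAC group. The LAMP1 groups did not overlap. Its log2 fold change was -0.28 ± 0.10 (SE, adjusted P = 0.556 in limma), called in 7 of 14 fits. The call was lost without sham replicate 1 (-0.23), sham replicate 3 (-0.26), DAC replicate 4 (-0.25) or DAC replicate 6 (-0.28). LAMP2, its paralog with a role in the fusion of autophagosomes, had a log2 fold change of 0.15 (95% interval -0.27 to 0.57) at a mean level of 9.69 FPKM over all samples. Its highest values were 11.7 FPKM in sham replicate 2 and 11.9 FPKM in DAC replicate 4, so the LAMP2 groups overlapped. SCARB2, the receptor that brings glucocerebrosidase to the lysosome, and MCOLN1, a calcium channel, had log2 fold changes of -0.12 (-0.43 to 0.19) and -0.01 (-0.51 to 0.50).

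Of the 5 proton pump members, ATP6AP1 was downregulated. ATP6AP1 is an accessory subunit needed for assembly of the membrane sector (chrX:124952500-124960344, plus strand). It was measured at 55.3, 51.6 and 55.9 FPKM in the sham group and at 39.1, 40.3 and 49.1 FPKM in the DAC group. DAC replicate 6 came closest to the sham values of ATP6AP1 but stayed below them. The log2 fold change was -0.34 ± 0.12 (SE, adjusted P = 0.553 in limma), called in 10 of 14 fits. The ATP6AP1 call was lost without sham replicate 1 (-0.33), sham replicate 3 (-0.32), DAC replicate 4 (-0.28) or DAC replicate 5 (-0.30). The catalytic and regulatory subunits ATP6V1A, ATP6V1B2 and ATP6V1H and the membrane subunit ATP6V0D1 had log2 fold changes of 0.03, -0.08, 0.11 and -0.08, and none was called. Of these, ATP6V1A had an interval of -0.22 to 0.28.

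The cysteine cathepsins showed 0 calls among the 5 tested. CTSB, the most abundant of them, had 57.2, 65.2 and 63.6 FPKM in sham and 62.3, 61.9 and 71.7 FPKM in DAC samples. The CTSB groups overlapped, and the log2 fold change was 0.07 (95% interval -0.19 to 0.33). CTSF and CTSZ had log2 fold changes of -0.28 (-0.61 to 0.06) and -0.14 (-0.56 to 0.28), and CTSH, an aminopeptidase, had -0.03 (-0.57 to 0.51). CTSS, a cathepsin of antigen-presenting cells, had 0.25 (-0.21 to 0.70). The CTSS row (chr4:98390250-98442936) spans the RefSeq positions of CTSS (chr4:98415273-98442952) and of CTSK (chr4:98389459-98404969), so reads of the osteoclast collagenase CTSK cannot be told apart from CTSS in this row, which also overlaps ARNT.

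The ratio of cathepsin D to cathepsin B within a sample does not depend on the scaling of the samples. The FPKM ratio of CTSD to CTSB was 3.41, 3.03 and 3.15 in the sham group and 2.30, 1.88 and 1.92 in the DAC group. Each DAC minipig had a lower ratio than each sham minipig. The pair was chosen after the values were seen, so the ratio is given as a description.

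For the glycosidases, 0 of 5 tested by symbol were called, and sham replicate 2 stood apart from its group for GAA and GLB1. GAA, the acid alpha-glucosidase that degrades glycogen, had 20.5, 12.7 and 20.6 FPKM in sham and 12.8, 13.1 and 13.1 FPKM in DAC samples. Sham replicate 2 was at the level of the DAC group for GAA, and the log2 fold change was -0.40 (95% interval -0.84 to 0.04). GLB1, the acid beta-galactosidase, ranged from 19.1 FPKM in sham replicate 2 to 54.1 FPKM in sham replicate 1, with DAC values of 27.2 to 39.2 FPKM and a log2 fold change of -0.15 (-0.998 to 0.69). With 1 minipig left out, the GLB1 value ranged from -0.57 without sham replicate 2 to 0.15 without sham replicate 1, so its direction turned with the minipigs kept. Without sham replicate 2, GAA (-0.62), GLB1 and NPC1 (-0.41) passed the threshold and TPP1 did not, which made 8 downregulated members. GUSB (beta-glucuronidase), NEU1 (a sialidase) and GLA (alpha-galactosidase) had log2 fold changes of 0.27, 0.17 and 0.10. For the genes found by identifier, HEXA (a beta-hexosaminidase subunit), MAN2B1 (alpha-mannosidase) and IDS (iduronate sulfatase) had -0.15, -0.11 and 0.02, with groups that overlapped.

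**Figure D3:**
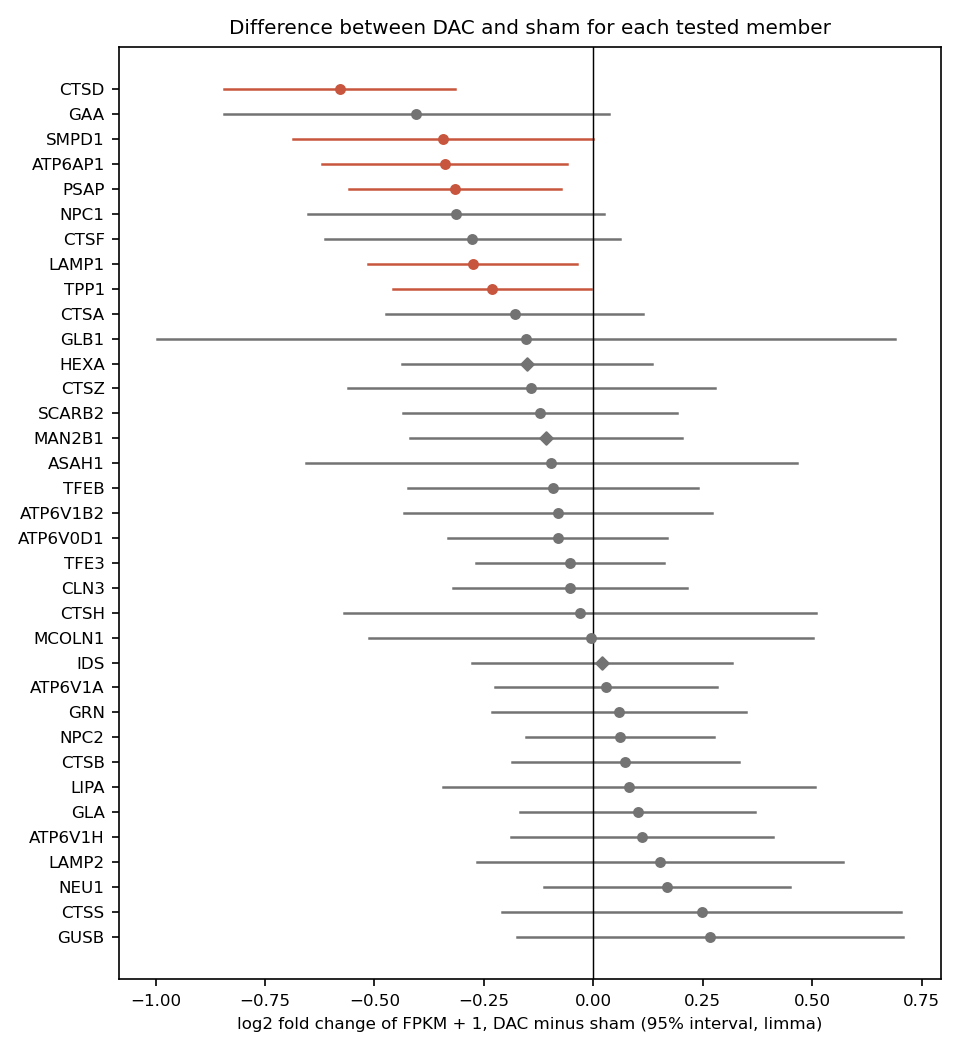
Log2 fold change of FPKM + 1 (DAC minus sham) with its 95% interval from limma for the 35 tested genes, in order of size, with red for an unadjusted P under 0.05 and diamonds for genes matched by identifier. CTSD (-0.58) is the farthest from 0, and the interval of GLB1 (-0.998 to 0.69) is the widest.

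The transcription factors that switch on lysosomal genes were not called. TFEB, a main regulator of these genes, had 15.3, 11.4 and 11.1 FPKM in sham and 12.5, 11.5 and 10.99 FPKM in DAC samples. Sham replicate 1 was the highest, and the other 5 TFEB values lay close together. The TFEB log2 fold change was -0.09 (95% interval -0.42 to 0.24), and it was 0.04 without sham replicate 1. TFE3, its relative, had 9.85, 9.90 and 9.61 FPKM in sham and 9.50, 9.50 and 9.16 FPKM in DAC samples. The TFE3 groups did not overlap but their means were close (a change of -4.05%, log2 fold change -0.05, interval -0.27 to 0.16). Both factors are controlled largely by their movement into the nucleus, which RNA levels do not measure. GRN, the precursor of the lysosomal granulins, had a log2 fold change of 0.06 (-0.23 to 0.35).

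Counted by separation alone, 6 of the 32 tested members had all DAC values below all sham values (CTSD, PSAP, ATP6AP1, LAMP1, TPP1 and TFE3), and 0 had all above. Among all genes tested, 8.91% lay fully below and 6.01% fully above. With 3 minipigs a group, the smallest two-sided P of an exact permutation test is 0.10.

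The 6 downregulated genes were all among the members of high level. Of the 9 members with a mean of at least 40 FPKM, 6 were downregulated (66.7%) and 8 had means below those of the sham group, and their median log2 fold change was -0.28. CTSB was the exception. Among all 881 tested genes at that level, 8.51% were downregulated and 63.2% had a lower mean, and the median was -0.07. At that level, 5 further genes came from the lists of the wider lysosomal system and were not among the members. These were CD63, LAPTM4A, LAPTM4B, ATP6V1F and the cathepsin inhibitor CST3. They gave 0 calls, with 3 means lower and 2 higher. CD63, a tetraspanin, had a log2 fold change of 0.08 and LAPTM4B, a membrane protein of late endosomes and lysosomes, had 0.96. Of the 23 members below 40 FPKM, the 13 with at least 5 FPKM had a median of -0.08 and the 10 below 5 FPKM had one of 0.09, and 0 of them were called. The bounds were chosen after the values were seen, and a pseudocount of 1 draws the log2 fold change of low genes toward 0.

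**Figure D4:**
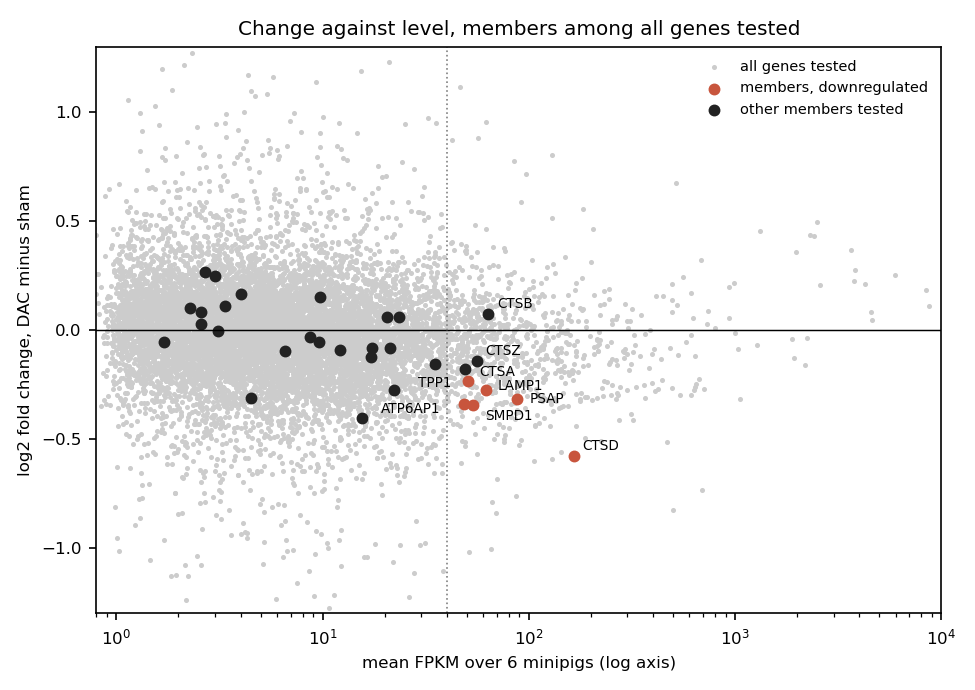
Log2 fold change (DAC minus sham) against the mean FPKM over the 6 minipigs on a log axis, for all 11029 genes tested (grey, of which 38 lie outside the axes) and for the 32 members (red downregulated, black others), with names for members above the dotted line at 40 FPKM. The 6 red points lie to the right of that line.

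As a total, the 33 members summed to 997, 891 and 999 FPKM in the sham group and to 782, 811 and 831 FPKM in the DAC group. The DAC sums lay below all sham sums. The mean sum was 962 ± 62.0 FPKM in sham and 808 ± 24.8 FPKM in DAC samples (SD, n = 3 each), and CTSD made up 42.2% of that difference. Without CTSD, the sums were 802, 693 and 799 FPKM against 638, 695 and 693 FPKM, and the groups overlapped through sham replicate 2. Mitochondrially encoded transcripts took 24.0% to 25.3% of all FPKM in sham and 27.1% to 32.8% in DAC samples. As a share of the other FPKM, the members held 0.413% to 0.466% in sham and 0.381% to 0.391% in DAC samples, which did not overlap. Without CTSD, the shares of the groups overlapped through sham replicate 2. The mean share without CTSD was 0.356% ± 0.029% in sham and 0.324% ± 0.012% in DAC samples (SD, n = 3 each). That was a change of -8.92%, beside -13.4% with CTSD. With the mitochondrially encoded genes left out, the members downregulated were CTSD, PSAP and ATP6AP1, 3 of 32, beside 3.69% of all genes.

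The minipigs within a group were not alike. Sham replicates 1 and 3 held the highest value for 8 and 11 of the 32 members, while sham replicate 2 held the lowest for 8. In the DAC group, replicate 4 was the lowest of all 6 for 9 members. DAC replicate 5 was the highest for 6 (CTSS, LIPA, MCOLN1, ASAH1, NPC2 and GRN), and DAC replicate 6 for 4. Such counts were not made over all genes, so they are given as a description. Of 14 listed markers of macrophages and other leukocytes, 7 were highest in DAC replicate 5 (AIF1, CD68, CSF1R, ITGAM, ITGB2, PTPRC and TYROBP). Of the other 7, C1QA, C1QB, C1QC and FCER1G were highest in DAC replicate 6, and C1QA and C1QC were lowest in DAC replicate 5 (8.63 and 30.3 FPKM). CD14 was highest in sham replicate 1, and CD163 and MRC1 were highest in sham replicate 3. The summed level of the 14 was 127 to 165 FPKM in sham and 119 to 187 FPKM in DAC samples, with 0 upregulated and 1 downregulated (CD163). No row was found for ADGRE1, LYZ and MARCO by symbol or identifier. The part of leukocytes in the members' values was not tested.

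**Figure D5:**
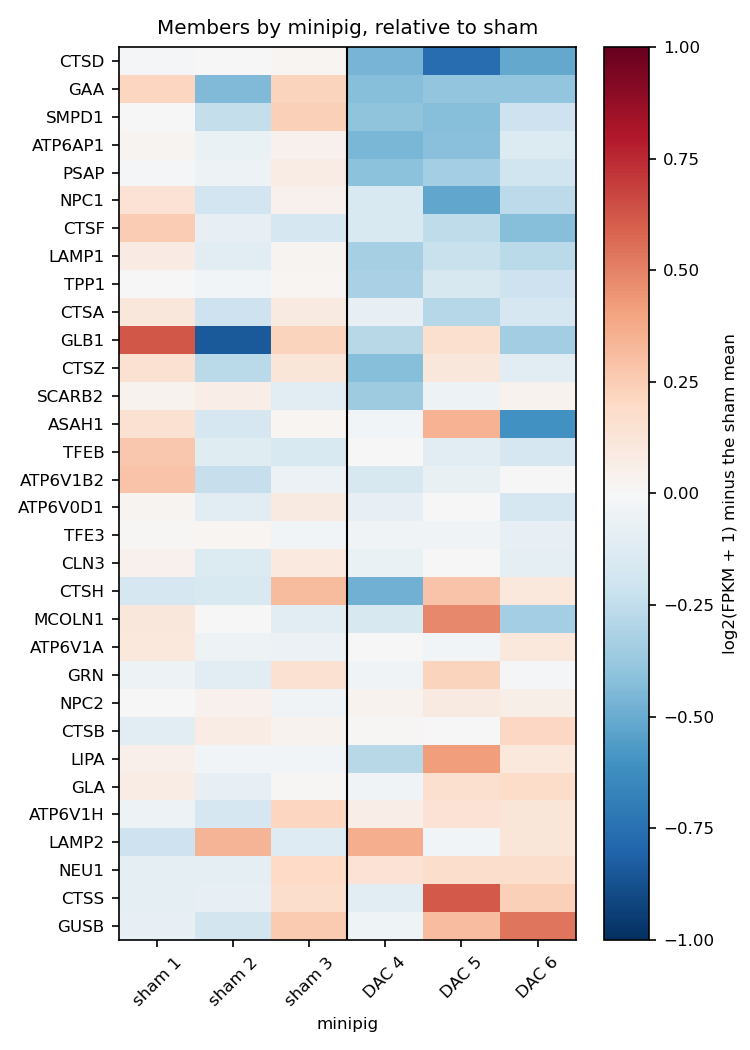
Log2 of FPKM + 1 minus the sham mean for the 32 tested members (rows, in order of the log2 fold change) in each minipig (columns, numbered by replicate), with blue below and red above the sham mean and colors cut at 1. The rows from CTSD to TPP1 are blue in all 3 DAC columns, and sham replicate 2 is blue for GAA and GLB1.

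Some markers of other cell types moved as well. Of 10 fibroblast markers, 5 were upregulated (COL1A1, COL1A2, COL3A1, LUM and POSTN). The others were not called, with log2 fold changes of 0.24 (PDGFRA), 0.08 (DPT), -0.01 (DCN), -0.02 (TCF21) and -0.03 (MFAP5). All 10 together summed to 561 to 644 FPKM in sham and 764 to 897 FPKM in DAC samples. The 8 cardiomyocyte markers tested summed to 13924 to 14737 FPKM in sham and 13282 to 16319 FPKM in DAC samples, with 1 downregulated (RYR2). No row was found for MYH6, PLN and TTN by symbol or identifier. Of 9 endothelial markers, 2 were upregulated (KDR, 0.60, and EMCN, 0.39) and 2 downregulated (CLDN5, -1.22, and VWF, -0.49). Among 7 smooth muscle and pericyte markers, 1 was upregulated (CNN1, 0.60). The adipocyte markers tested, FABP4 (0.54) and PLIN4 (-0.39), were not called. Among all genes tested, 3.25% were upregulated and 5.27% downregulated. The part of these cells in the lower levels of CTSD and the other downregulated members was not tested.

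The wider lysosomal system was read from 124 further genes, of which 109 were found by symbol or identifier and 102 were tested. Of these 102, 1 was upregulated and 3 were downregulated, both smaller shares than the 3.25% and 5.27% of all genes tested. The mean was lower for 63, beside 53.4% of all genes, and the median log2 fold change was -0.04, beside -0.02. Those called stood among the hydrolases (1 of 32) and the delivery genes (3 of 23). Other membrane proteins (21), other proton pump subunits (9), nutrient sensing genes (15) and cathepsin inhibitors (2) had 0 calls.

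HYAL2, a hyaluronidase held at the cell surface by a lipid anchor and also named for the lysosome, showed the largest log2 fold change of the called genes. HYAL2 was measured at 32.4, 33.3 and 45.5 FPKM in sham and at 12.3, 15.1 and 18.4 FPKM in DAC samples. The highest DAC value of HYAL2 was far below the lowest sham value, and the log2 fold change was -1.22 ± 0.19 (SE, adjusted P = 0.261 in limma), called in all 14 fits.

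Of the delivery genes, 2 sorting receptors were downregulated. M6PR, the cation-dependent mannose 6-phosphate receptor, had 7.44, 7.23 and 7.02 FPKM in sham and 5.46, 5.83 and 4.95 FPKM in DAC samples. The M6PR groups did not overlap, with a log2 fold change of -0.36 ± 0.10 (SE, adjusted P = 0.5001 in limma) and a call in all 14 fits. SORT1 (sortilin), which carries prosaposin and acid sphingomyelinase, had 14.2, 12.6 and 13.8 FPKM against 11.5, 11.1 and 11.5 FPKM. The SORT1 groups did not overlap, and the log2 fold change was -0.24 ± 0.10 (SE, adjusted P = 0.584 in limma), called in 6 of 14 fits. Of the fits with 1 minipig left out, SORT1 was called in that without sham replicate 2 alone (-0.28), with -0.25 to -0.20 in the others. The SORT1 row overlaps that of an unnamed gene. AP3B1, a subunit of the adaptor complex that routes membrane proteins such as LAMP1 to lysosomes, was upregulated. AP3B1 rose from 2.93, 2.82 and 3.49 FPKM in sham to 4.16, 3.71 and 4.01 FPKM in DAC samples (log2 fold change 0.28 ± 0.11 SE, adjusted P = 0.582 in limma). It was called in 9 of the 13 fits that tested it, and the call was lost without sham replicate 1 (0.26), sham replicate 2 (0.24), DAC replicate 4 (0.26) or DAC replicate 6 (0.28). The larger mannose 6-phosphate receptor, IGF2R, had a log2 fold change of -0.05 (95% interval -0.32 to 0.23) and was not called.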

How the data were processed

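RNA from ventricular tissue of 3 sham and 3 DAC minipigs was sequenced as paired ends after a NEBNext Ultra library preparation. The values used are the FPKM of the gene table deposited by the authors, with 1 column for each minipig and no pooling. The submitters' processing notes name HISAT2 and the build susScr11, and the counting program and its handling of strand and shared reads are not given in the sources used here. No row has a highest value under 0.5001 FPKM. The depth is unknown, and no steps of whole reads were visible (at most 6 genes shared a ratio between samples, of at least 3459 compared), so precision rests on the spread between minipigs.

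Values were taken as log2(FPKM + 1), with 1 as the pseudocount, and compared with limma 3.58.1 in R 4.3.3 (moderated test, trend of the variance), over the 11029 genes that reached 1 FPKM in 3 or more samples. P was adjusted over all of them by the Benjamini-Hochberg method, and DEGs had an unadjusted P under 0.05. All confidence intervals are 95% intervals of this fit. Symbols came from the table, or for 520 rows without one from the identifier. The positions of all 36 listed genes with a row overlapped those of RefSeq Sscrofa11.1. The rows of 13 of them overlapped another gene's row, where reads may be shared. Members, gene lists and named genes were chosen with earlier results of these data known. Each listed gene is accounted for. Values of all minipigs are given for called genes, for TFEB and TFE3, for the highest and lowest members, and for a few more chosen after their values were seen. Alternatives were another filter, pseudocount, scaling or variance estimate, and each minipig left out. The steps were tested on simulated data. Figures used Python 3.11.15 with matplotlib 3.10.9.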

Additional observations from a re-analysis of the deposited data

How the results depend on the processing

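Against 6 downregulated members in the fit reported, median scaling, quantile normalization and leaving out the mitochondrially encoded genes each gave 3 (CTSD, PSAP and ATP6AP1). Among all genes, 4.34%, 4.25% and 3.69% were downregulated under these settings, in the same order. Leaving out 1 minipig gave 1 to 8 downregulated members, beside 3.26% to 6.11% of all genes. The single member call that stayed without sham replicate 3 was CTSD, 1 of 32, beside 3.51% of all genes in that fit. Without sham replicate 1 there were 2 (CTSD and PSAP), and without DAC replicate 4 there were 3 (CTSD, PSAP and NPC1). Upregulated members numbered 0 to 1 with a minipig left out, the 1 being CTSS without DAC replicate 4, beside 2.85% of all genes in that fit. The same scalings moved the split of all DEGs from 358 up and 581 down to 429 and 479, 418 and 469, and 500 and 407. The members' median was -0.13 to -0.03 with a minipig left out and -0.13 to -0.04 under the other settings, below that of all genes in each. The gap to all genes was -0.06 in the fit reported, and -0.12 to -0.01 with a minipig left out. Between minipigs of 1 group, the members' median deviation varied with an SD of 0.07. These fits share most of their minipigs, so they are not independent of each other. The 6 members whose groups did not overlap became 7 to 16 with a minipig left out, since fewer values have to separate. This was 21.9% to 50% of the members, beside 21.9% to 28.8% of all genes in the same fits. The members' share was higher without sham replicate 2 (50% beside 28.8%), sham replicate 3 (34.4% beside 22.8%) or DAC replicate 4 (40.6% beside 25.1%). It was equal without sham replicate 1 (21.9%), and lower without DAC replicate 5 (21.9% beside 26.7%) or DAC replicate 6 (21.9% beside 27.8%). With all minipigs it was 18.8% beside 14.9%.

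Of the other lysosomal genes, 1 was upregulated in the fit reported, 0 with a minimum of 5 FPKM, 2 with no filter, median scaling or the variance of each gene on its own, 3 with quantile normalization or without the mitochondrially encoded genes, and 1 to 3 with a minipig left out. Downregulated ones numbered 2 to 6 with a minipig left out, the 6 without sham replicate 2. Among all genes in the fits with a minipig left out, 2.19% to 4.26% were upregulated and 3.26% to 6.11% downregulated. The TFEB log2 fold change was -0.168 to 0.043 with a minipig left out, above 0 without sham replicate 1. The causes were not tested. No paired analysis was possible because the groups share no replicate numbers. Unknown depth and 3 minipigs a group limit what can be detected, and a gene that was not called is not shown to be equal.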

Other observations

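CTSC and LAPTM4B are given as examples of lysosomal genes that were not called, and were picked after their values were seen. LMBRD1, SLC38A9, RRAGC and LAMTOR1 were also uncalled with groups that did not overlap, the first 3 higher and LAMTOR1 lower in the DAC group. Of the 102 other lysosomal genes tested, called or not, 5 lay fully above and 4 fully below the sham values. Both were smaller shares than the 6.01% and 8.91% of all genes tested. CTSC, the cathepsin that activates serine proteases of leukocytes and mast cells, had 34.9, 24.1 and 28.0 FPKM in sham and 37.01, 35.7 and 36.4 FPKM in DAC samples. All DAC values of CTSC were above all sham values, with a log2 fold change of 0.33 ± 0.14 (SE, adjusted P = 0.592 in limma). CTSC was called in 4 of 14 fits, which were median scaling (0.36), quantile normalization (0.39), the mitochondrially encoded genes left out (0.38) and without sham replicate 1 (0.47), and its value was 0.21 without sham replicate 2. LAPTM4B, a membrane protein of late endosomes and lysosomes, had 90.1, 26.5 and 25.0 FPKM in sham and 70.7, 79.9 and 81.2 FPKM in DAC samples. Sham replicate 1 held the highest LAPTM4B value of all, while the other sham minipigs were far below every DAC minipig (log2 fold change 0.96 ± 0.45 SE, adjusted P = 0.596 in limma). LAPTM4B was called in 2 of 14 fits, with quantile normalization (1.03) and without sham replicate 1 (1.55, adjusted P = 0.081 in limma), and its value was 0.64 without sham replicate 3. TCIRG1, a proton pump subunit, also differed widely within groups, with 0.588, 5.68 and 0.791 FPKM in sham and 10.6, 7.06 and 1.33 FPKM in DAC samples.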
